A study of Mus musculus with 18 samples.

Results

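The elastic fibre genes Eln, Fbln1, Fbln2, Fbln5, Efemp2, Fbn1, Fbn2, Lox, Loxl1 and Mfap4 were followed through heart development in RNA-sequencing counts from mouse embryos. The 10 genes were listed by symbol and matched by Ensembl identifier, out of 49315 identifiers counted in every library. All 10 were among the 18885 genes left by the filter on low counts. They were chosen by their known place in the elastic fibre and by their differences in level between stages in these libraries, so those differences are given here as a description, with counts past a threshold but without p-values.

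Hearts were dissected at embryonic day 9.5 (E9.5, 3 libraries), E10.5 (4 libraries), E12.5 (4 libraries), E14.5 (3 libraries) and E16.5 (4 libraries). All embryos were wild-type C57BL/6 and each library pooled male and female material, so the groups differ by stage alone as far as the labels go. Total RNA was sequenced, and the values are counts of reads per gene. How much of the outflow tract and great vessels stayed with the heart, and whether libraries came from separate litters, is not given in the sources used here. P-values therefore measure the spread between libraries, which may be technical.

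Elastic fibres give arteries, valves and other stretching tissues their recoil. A core of elastin, secreted as soluble tropoelastin, is laid down on a scaffold of fibrillin microfibrils. Fibulins bring tropoelastin to the scaffold, and copper-dependent lysyl oxidases cross-link it into an insoluble polymer. In the heart such fibres are known from the walls of the great arteries, the valves and the layer under the epicardium.

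Each library held 30744015 to 45646538 counts. At this depth a gene with no read could still lie at up to 0.0657 to 0.0976 CPM (counts scaled to a common library size), a limit that covers counting error only. Cardiomyocyte markers, 10 sarcomere and chamber genes such as Tnnt2 and Myh6, summed to 18164 to 34686 CPM in the 18 libraries. Of 8 lung and pharyngeal lineage markers 3 were high enough to be tested, and the 8 together summed to 1.18 to 8.24 CPM, with Sftpc at 0 in every E9.5 and E12.5 library and Pax1 at 0 in every E14.5 library. In 5 libraries (E9.5 replicates 2 and 3, E10.5 replicates 1 and 2, and E12.5 replicate 4) a set of 8 macrophage-type transcripts such as Chil3 and Mmp12 summed to 0.582 to 2.75 CPM, against 341 to 689 CPM in the other 13 libraries. Values for both sets of libraries are given below for several of the genes. Of the other 13 libraries only replicate 1 is from E9.5, so their values at E10.5 against E9.5 rest on that library at E9.5.

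Elastin (Eln, ENSMUSG00000029675, GRCm38 chromosome 5 from 134702593 to 134747323, minus strand), the extensible core protein, spanned the widest range of the 10 genes. At E9.5 it had 7.79, 6.20 and 4.91 CPM. At E10.5 it had 15.7, 16.2, 30.3 and 29.2 CPM, and at E12.5 it had 564, 516, 593 and 609 CPM. No library of E12.5 came near any of E10.5, and no library of E10.5 overlapped with E9.5. At E14.5 the level was 1656, 1641 and 1232 CPM. At E16.5 it was 2209, 1703, 1451 and 989 CPM, and these 4 libraries straddled the E14.5 values.

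Eln averaged 6.30 ± 1.44 CPM at E9.5 (SD, n = 3), 22.8 ± 8.01 CPM at E10.5 (n = 4), 570 ± 40.7 CPM at E12.5 (n = 4), 1510 ± 240 CPM at E14.5 (n = 3) and 1588 ± 509 CPM at E16.5 (n = 4). The largest step lay between E10.5 and E12.5. E12.5 exceeded E10.5 by a log2 fold change of 4.64 ± 0.288 (SE), which is 25.0-fold. Over the whole span, E16.5 over E9.5, the log2 fold change was 7.97 ± 0.388, or 251-fold. The E16.5 to E14.5 difference was 0.07 ± 0.265 on the log2 scale, smaller than its own error.

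The E10.5 libraries of Eln fell into 2 pairs along the macrophage-type split, at 15.7 and 16.2 CPM in the low libraries and 30.3 and 29.2 CPM in the others. The log2 fold change of E12.5 over E10.5 was accordingly 5.26 within the low libraries, where E12.5 has a lone library assumed to vary like the rest, and 4.23 within the others. The part of those transcripts, or of what goes with them, in the level of Eln was not tested.

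**Figure D1:**
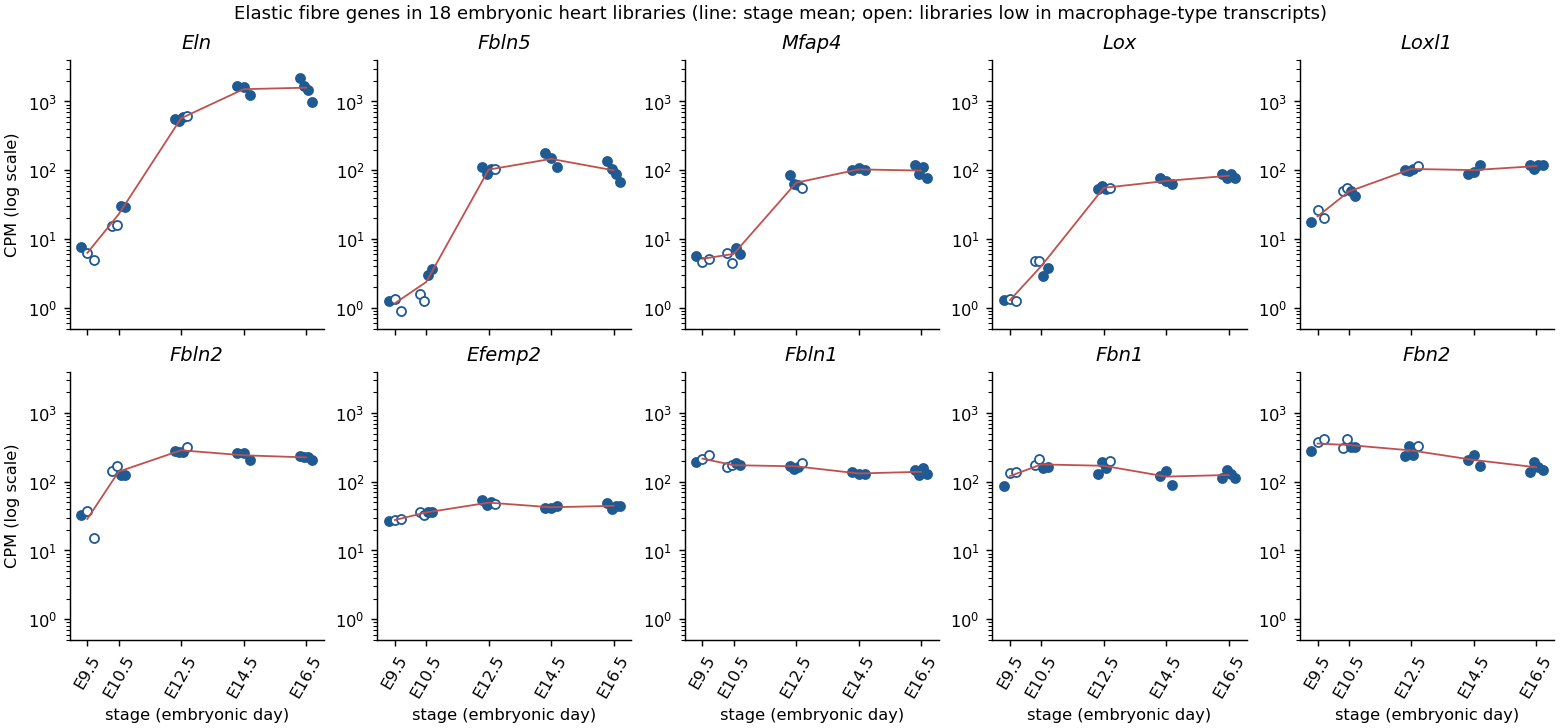
Level of each of the 10 genes in every library (vertical axis, CPM on a log scale) by embryonic stage (horizontal axis), with a line through the stage means and open points for the 5 libraries low in macrophage-type transcripts. Eln, Fbln5, Lox and Mfap4 step up between E10.5 and E12.5, whereas Fbn1, Fbln1 and Efemp2 stay within a narrower band. Fbn2 goes from a mean of 358 CPM at E9.5 down to 162 CPM at E16.5.

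The fibulins are secreted glycoproteins with calcium-binding EGF-like repeats. Fbln5 and Efemp2 are required for elastic fibre assembly in mice, and Fbln1 and Fbln2 are found in basement membranes, in valves and along fibres. Promoter windows are shown for the 3 of these genes with a start site whose upstream window overlaps no annotated exon, since the genes differ widely in how their levels changed: Fbln5 had the largest step of all 10 genes between E10.5 and E12.5, Efemp2 a small one, and Fbln1 ended below its first level. Each window is the 250 bases before a RefSeq start site in GRCm38.p6, 5′ to 3′ on the strand of the gene. Capitals mark the GC box, GGGCGG or its complement CCGCCC. Fbln5 is at chr12:101819120-101819369 (minus strand), Efemp2 at chr19:5473696-5473945 (plus strand) and Fbln1 at chr15:85205699-85205948 (plus strand).
Fbln5: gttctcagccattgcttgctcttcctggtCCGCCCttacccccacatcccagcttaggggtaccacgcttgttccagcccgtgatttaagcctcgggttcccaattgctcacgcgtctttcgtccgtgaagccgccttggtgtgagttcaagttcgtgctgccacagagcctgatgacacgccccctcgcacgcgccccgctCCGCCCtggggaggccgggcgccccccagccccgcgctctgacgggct
Efemp2: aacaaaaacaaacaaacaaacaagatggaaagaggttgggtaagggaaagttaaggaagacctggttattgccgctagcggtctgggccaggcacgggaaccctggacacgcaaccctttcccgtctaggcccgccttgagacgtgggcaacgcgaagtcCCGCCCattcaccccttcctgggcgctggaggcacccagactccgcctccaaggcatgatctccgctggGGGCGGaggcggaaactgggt
Fbln1: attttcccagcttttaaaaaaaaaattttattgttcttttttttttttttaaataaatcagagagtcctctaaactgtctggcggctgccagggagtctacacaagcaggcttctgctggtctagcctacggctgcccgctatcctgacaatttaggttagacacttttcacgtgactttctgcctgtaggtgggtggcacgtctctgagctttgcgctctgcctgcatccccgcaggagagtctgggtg

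The Fbln5 window held 2 GC boxes, 221 and 48 bases before the start, and the Efemp2 window held 2, at 90 and 21 bases. The Fbln1 window held none, but the window of another RefSeq start of Fbln1, which overlaps an annotated exon and is not shown, held 1, 11 bases before its start at 85206008, and was 62.4% G and C. Likewise, the window of the Fbln5 start at 101818484 held no GC box and was 49.6% G and C. Those of the Efemp2 starts at 5474690 and 5474735 held 5 each and were 75.6% and 78.8% G and C. What a gene's window holds thus depends on the start site taken. Of 32851 mouse promoter windows of this length, 32.7% held at least 1 GC box. Searched on both strands, none of the 3 windows held an AP-1 motif (TGANTCA, in 6.75% of all windows), a TEAD motif (GGAATG, 12.6%), a TATA box (TATAAA, 12.4%) or a CArG box (1.47%). Such matches describe letters only. The windows were 65.2% G and C in Fbln5, 59.2% in Efemp2 and 46.4% in Fbln1. The RefSeq promoter table used here gave windows for 5 of the 10 genes at 9 start sites outside chromosome 18, and those not shown overlap annotated exons.

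Fbln5 (ENSMUSG00000021186, chromosome 12 from 101746565 to 101819055, minus strand) was the least abundant member at E9.5, with 1.27, 1.33 and 0.896 CPM from 42, 41 and 27 reads. At E10.5 it had 1.61, 1.27, 2.97 and 3.64 CPM, and at E12.5 it had 112, 88.0, 106 and 103 CPM. The E12.5 libraries stood apart from all earlier ones, while E9.5 and E10.5 libraries touched. At E14.5 the level was 177, 151 and 111 CPM, and at E16.5 it was 136, 106, 89.2 and 67.9 CPM. E14.5 thus had the highest mean (147 ± 33.1 CPM, SD, n = 3), with a range that overlapped E12.5 and E16.5.

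The E12.5 to E10.5 log2 fold change of Fbln5 was 5.44 ± 0.309 (SE), or 43.5-fold. Within the macrophage-type split it was 6.15 in the low libraries and 4.94 in the others, since the low libraries had 1.61 and 1.27 CPM at E10.5 and the others 2.97 and 3.64 CPM. As for Eln, the part of the split in this was not tested. The E10.5 to E9.5 log2 fold change of 1.01 ± 0.414 did not pass the threshold in edgeR and did in DESeq2. It was 0.40 in the low libraries and 1.39 in the others, of which E9.5 has 1.

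Fbln2 (ENSMUSG00000064080, chromosome 6 from 91212455 to 91272540, plus strand) took its largest step earlier. It had 33.0, 38.0 and 15.3 CPM at E9.5. At E10.5 it had 141, 169, 124 and 126 CPM, and at E12.5 it had 282, 272, 273 and 318 CPM. These 3 stages did not overlap. The E10.5 to E9.5 log2 fold change was 2.28 ± 0.224 (SE) and the E12.5 to E10.5 change was 1.03 ± 0.191. Neither passed within the libraries low in macrophage-type transcripts alone, where the changes were 2.56 and 1.04. Later libraries lay between 205 and 260 CPM.

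Fbln1 (ENSMUSG00000006369, chromosome 15 from 85205949 to 85286535, plus strand) was highest at E9.5, at 191, 213 and 245 CPM. The stage means were 216 ± 27.0 CPM at E9.5 (SD, n = 3), 174 ± 8.62 at E10.5 (n = 4), 167 ± 13.6 at E12.5 (n = 4), 132 ± 5.31 at E14.5 (n = 3) and 139 ± 14.8 at E16.5 (n = 4). All 4 E16.5 libraries (124 to 156 CPM) were below all 3 of E9.5, a log2 fold change of -0.63 ± 0.0914 (SE). The E10.5 to E9.5 change of -0.32 ± 0.0915 was -0.22 without E9.5 replicate 3 and -0.29 without E10.5 replicate 1, neither past the threshold. It was -0.42 within the libraries low in macrophage-type transcripts and -0.09 within the others, of which E9.5 has 1.

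Efemp2 (ENSMUSG00000024909, chromosome 19 from 5473954 to 5482517, plus strand) moved least among the genes higher at E16.5 than at E9.5 past the threshold. Its means were 27.7 ± 0.837 CPM at E9.5 (SD, n = 3), 35.7 ± 1.71 at E10.5 (n = 4), 49.6 ± 3.20 at E12.5 (n = 4), 42.5 ± 1.25 at E14.5 (n = 3) and 44.6 ± 3.83 at E16.5 (n = 4). The first 3 stages did not overlap, with 26.8 to 28.4, 33.2 to 36.8 and 46.4 to 53.7 CPM. The exons of Efemp2 share 4.57% of their length with Mus81 on the other strand, and whether the counting used strand is not given in the sources used here.

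Of the microfibril genes, the fibrillins Fbn1 and Fbn2 encode the large glycoproteins that polymerise into the scaffold, and Mfap4 encodes a microfibril-associated protein with a fibrinogen-like domain. Fbn2 (ENSMUSG00000024598, chromosome 18 from 58008623 to 58210487, minus strand), the fibrillin typical of embryonic tissue, had 278, 375 and 423 CPM at E9.5. It had 314, 414, 321 and 316 CPM at E10.5 and 234, 326, 248 and 331 CPM at E12.5. These 3 stages overlapped. At E14.5 it had 209, 242 and 170 CPM, and at E16.5 it had 139, 195, 166 and 148 CPM, all below every library of E9.5 and E10.5.

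The E16.5 to E9.5 log2 fold change of Fbn2 was -1.15 ± 0.169 (SE). It was -0.77 within the libraries that are not low in macrophage-type transcripts, of which E9.5 has 1. No step between neighbouring stages passed the threshold for Fbn2, with log2 fold changes of -0.07, -0.26, -0.46 and -0.36 in order of stage. The E14.5 to E12.5 change passed in DESeq2 and with the replicate number as a block, at -0.45 in both.

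Fbn1 (ENSMUSG00000027204, chromosome 2 from 125300594 to 125507993, minus strand) had means of 121 ± 29.1 CPM at E9.5 (SD, n = 3), 178 ± 26.2 at E10.5 (n = 4), 170 ± 33.7 at E12.5 (n = 4), 119 ± 27.7 at E14.5 (n = 3) and 126 ± 16.1 at E16.5 (n = 4). Its E10.5 libraries (160 to 216 CPM) did not overlap with its E9.5 libraries (87.3 to 140 CPM). The log2 fold change of 0.56 ± 0.198 (SE) did not pass in the edgeR fit, and it did in DESeq2 and with the replicate number as a block (0.57). It was 0.54 in the libraries low in macrophage-type transcripts, where it passed, and 0.89 in the others, of which E9.5 has 1. Of its exon length, 20.1% is shared with Gm9913 on the other strand.

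Per length of exons, the balance between the fibrillins shifted over the stages. The share of Fbn2 in the sum of Fbn1 and Fbn2 was 73.3 ± 1.32% at E9.5 (SD, n = 3), 63.7 ± 1.16% at E10.5 (n = 4), 60.6 ± 1.40% at E12.5 (n = 4), 61.8 ± 1.65% at E14.5 (n = 3) and 54.2 ± 0.943% at E16.5 (n = 4). E9.5 libraries (71.9 to 74.5%) stood above all others and E16.5 libraries (52.9 to 55.0%) below all others. The spread of this share was small beside that of either gene, whose SD was 12.8 to 24.1% of the mean within a stage. With the longest transcript as the length in place of all exons, the share was 76.4% at E9.5 and 58.3% at E16.5.

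Mfap4 (ENSMUSG00000042436, chromosome 11 from 61485431 to 61488900, plus strand) had 5.70, 4.64 and 5.14 CPM at E9.5. At E10.5 it had 6.27, 4.52, 7.47 and 6.08 CPM, which overlapped E9.5. At E12.5 it had 85.0, 62.7, 61.0 and 54.8 CPM, with no overlap with E10.5 and a log2 fold change of 3.44 ± 0.170 (SE), or 10.8-fold. It had 102, 107 and 100 CPM at E14.5 and 119, 89.2, 110 and 77.6 CPM at E16.5, so that the last 2 stages overlapped. Its exons share 4.63% of their length with Mapk7 on the other strand.

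Lox and Loxl1 encode lysyl oxidases, the copper enzymes that oxidise lysines of tropoelastin so that cross-links form. Lox (ENSMUSG00000024529, chromosome 18 from 52516067 to 52529867, minus strand) also cross-links collagen, and Loxl1 is tied to elastic fibre upkeep in mice. Lox had 1.30, 1.33 and 1.26 CPM at E9.5. It had 4.73, 4.78, 2.86 and 3.80 CPM at E10.5 and 54.3, 58.1, 54.1 and 55.6 CPM at E12.5. None of these stages overlapped. At E14.5 it had 76.6, 69.3 and 64.1 CPM, and at E16.5 it had 88.9, 78.4, 88.4 and 77.3 CPM, above every E14.5 library.

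The log2 fold changes of Lox were 1.64 ± 0.160 (SE) for E10.5 to E9.5, 3.77 ± 0.117 for E12.5 to E10.5, 0.33 ± 0.108 for E14.5 to E12.5 and 0.25 ± 0.108 for E16.5 to E14.5. The last did not pass the threshold with all libraries. It passed when the 5 libraries low in macrophage-type transcripts were left out, where it was also 0.25. None of those 5 is from E14.5 or E16.5, so both fits contrast the same libraries, with an SE of 0.108 and 0.0847. The E14.5 to E12.5 change lay at the threshold: it did not pass with the replicate number as a block (0.31) or without E12.5 replicate 1, 2, 3 or 4, or E14.5 replicate 1 or 2 (0.27 to 0.36). At E10.5 the low libraries had the higher Lox values (4.73 and 4.78 CPM, against 2.86 and 3.80 CPM in the others), the opposite of Eln and Fbln5. The E10.5 to E9.5 change of Lox was 1.90 in the low libraries and 1.36 in the others, of which E9.5 has 1.

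Loxl1 (ENSMUSG00000032334, chromosome 9 from 58287738 to 58313186, minus strand) had 17.5, 26.6 and 19.9 CPM at E9.5. It had 49.4, 55.1, 49.4 and 42.5 CPM at E10.5 and 101, 97.1, 105 and 115 CPM at E12.5, without overlap. Its log2 fold changes were 1.20 ± 0.130 (SE) for E10.5 to E9.5 and 1.09 ± 0.115 for E12.5 to E10.5. From E12.5 on its libraries lay between 88.2 and 120 CPM. Per length, Lox made up 4.13 ± 0.764% of the sum of Lox and Loxl1 at E9.5 (SD, n = 3), 5.38 ± 1.04% at E10.5 (n = 4), 26.9 ± 1.81% at E12.5 (n = 4), 32.7 ± 5.22% at E14.5 (n = 3) and 33.3 ± 1.59% at E16.5 (n = 4). The share at E12.5 and later was above every library of E9.5 and E10.5, and Loxl1 kept the larger share at all stages.

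Comparison of neighbouring stages counted the genes past a Benjamini-Hochberg adjusted p of 0.05 in edgeR's quasi-likelihood test over all 18885 genes. Since the genes were listed with these comparisons known, their counts stand beside the share of all genes and nothing is read from the excess. At E10.5 against E9.5, 5 of 10 were higher (Eln, Fbln2, Lox, Loxl1 and Efemp2), 1 lower (Fbln1) and 4 not past, where 10.6% of all genes were higher and 7.62% lower. At E12.5 against E10.5, 7 were higher (Fbln5, Eln, Lox, Mfap4, Loxl1, Fbln2 and Efemp2), none lower and 3 not past, where 20.0% of all genes were higher and 18.1% lower. Fbln1, Fbn1 and Fbn2, the 3 most abundant members at E9.5 in CPM, were the ones not past.

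At E14.5 against E12.5, 3 were higher (Eln, Mfap4 and Lox), 2 lower (Fbln1 and Efemp2) and 5 not past, where 6.29% of all genes were higher and 8.56% lower. This count changed most between alternatives. It was 7 in DESeq2, with Fbn1 and Fbn2 also lower, 3 with library totals in place of TMM scaling and 2 to 4 when single libraries were left out. The count was 3 without E12.5 replicate 3, E14.5 replicate 1 or E14.5 replicate 3, and 2 without E12.5 replicate 4 or E14.5 replicate 2, when the calls of Fbln1, Efemp2 and Lox ended. The call of Efemp2 ended in 10 of 16 alternatives, with a log2 fold change of -0.15 to -0.25 in those. At E16.5 against E14.5, none of the 10 passed, where 10.1% of all genes were higher and 8.74% lower. DESeq2 also gave 0, and 2 members had an unadjusted p under 0.05 in edgeR. Across the whole span, E16.5 against E9.5, 7 were higher, 2 lower (Fbn2 and Fbln1) and 1, Fbn1, not past, where 32.1% of all genes were higher and 32.8% lower (64.9% either way).

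The median log2 fold change of the 10 genes was 0.78 for E10.5 to E9.5, 1.06 for E12.5 to E10.5, -0.14 for E14.5 to E12.5, 0.07 for E16.5 to E14.5 and 2.70 for E16.5 to E9.5. Over all genes tested the medians were -0.004, 0.013, 0.001, -0.024 and -0.005 in the same order. The members' direction was thus not shared by all 10: over the whole span Eln, Fbln5, Lox and Mfap4 gained 4.26 to 7.97 log2 units, Fbln2, Loxl1 and Efemp2 gained 0.68 to 2.97, and the fibrillins and Fbln1 lay between -1.15 and 0.06. In whole hearts, more cells of a type and more RNA per cell cannot be told apart.

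**Figure D2:**
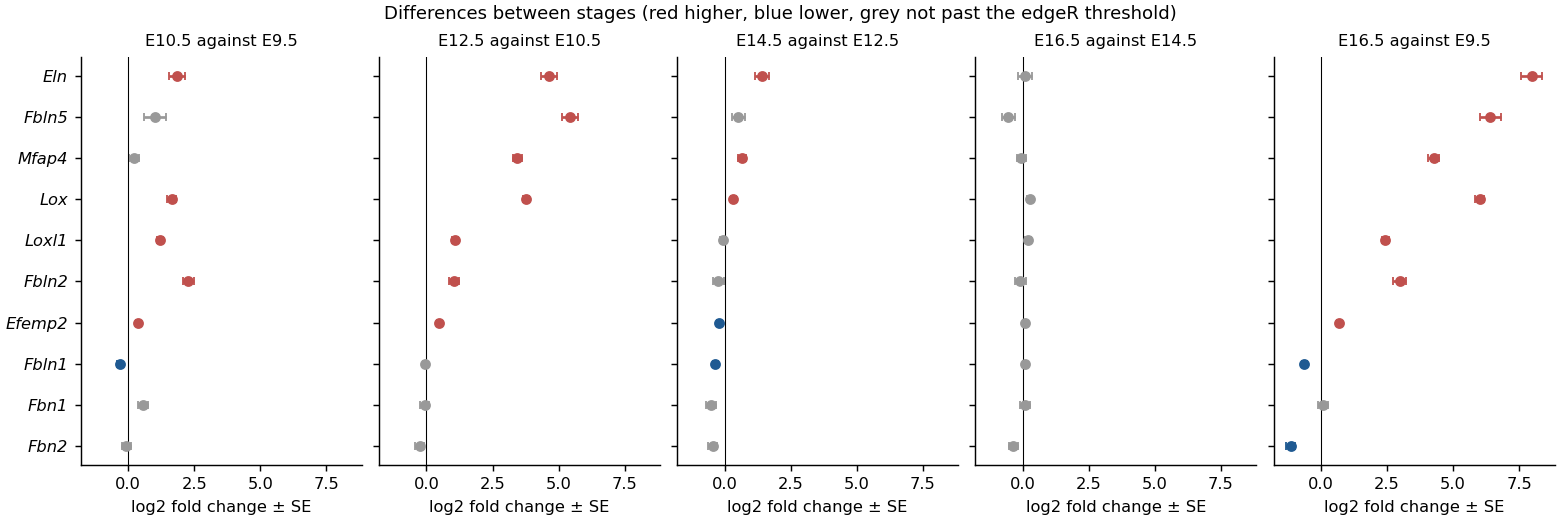
Log2 fold change of each gene with its standard error (horizontal axis) for each pair of stages, later over earlier, coloured by whether edgeR's adjusted p passed 0.05. Among neighbouring stages the widest spread is at E12.5 against E10.5, from -0.26 for Fbn2 to 5.44 for Fbln5, and no gene passes at E16.5 against E14.5.

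Levels of different genes were compared per kilobase of exons, since longer transcripts yield more reads. The order of the 10 genes turned over between E10.5 and E12.5. At E9.5 Fbln1 led with 49.5 ± 6.19 CPM per kb (SD, n = 3), followed by Fbn2 with 27.1 ± 5.59, and the libraries of these 2 did not overlap. Fbn1, Efemp2, Loxl1 and Fbln2 followed at 9.96 to 4.52 CPM per kb, each overlapping its neighbour in the order, and Fbln2 overlapped Mfap4. Eln stood eighth at 0.778 ± 0.178 CPM per kb, above Lox and Fbln5 without overlap.

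At E10.5 Fbln1 and Fbn2 still led, with 39.8 ± 1.97 and 25.8 ± 3.67 CPM per kb (SD, n = 4), and Fbn2 overlapped Fbln2 at 22.0 ± 3.31. Eln stayed eighth at 2.82 ± 0.989, overlapping Mfap4 above it. From E12.5 on Eln led without overlap, at 70.4 ± 5.03 CPM per kb (n = 4), 186 ± 29.7 at E14.5 (n = 3) and 196 ± 62.8 at E16.5 (n = 4). Mfap4 was next at E14.5 and E16.5, at 53.7 ± 1.95 and 51.5 ± 9.94 CPM per kb, without overlap with its neighbours. Fbn1 was last at both of these stages, at 9.77 ± 2.28 and 10.4 ± 1.33, overlapping Efemp2.

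Eln made up 0.736 ± 0.263% of the summed per-length level of the 10 genes at E9.5 (SD, n = 3), 2.13 ± 0.811% at E10.5 (n = 4), 23.9 ± 1.14% at E12.5 (n = 4), 45.1 ± 2.90% at E14.5 (n = 3) and 46.2 ± 6.61% at E16.5 (n = 4). With the longest transcript as the length, the share was 1.30% at E9.5 and 60.9% at E16.5. Among 15396 protein-coding genes ranked by mean level per length, Eln ranked 11509 at E9.5 and 9229 at E10.5. At E12.5 it ranked 618, at E14.5 it ranked 196 and at E16.5 it ranked 224. Within the 4 fibulins, Fbln1 held 80.3 ± 3.92% of the per-length sum at E9.5 (n = 3), 34.4 ± 0.618% at E12.5 (n = 4), 30.1 ± 2.46% at E14.5 (n = 3) and 34.2 ± 2.55% at E16.5 (n = 4). The share of Fbln5 in the same sum was 0.277 ± 0.0707% at E9.5, 13.3 ± 1.03% at E12.5. It was highest at E14.5, with 20.9 ± 2.85%, and was 15.3 ± 3.29% at E16.5. That of Efemp2 was between 11.2 and 13.2% at all 5 stages.

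**Figure D3:**
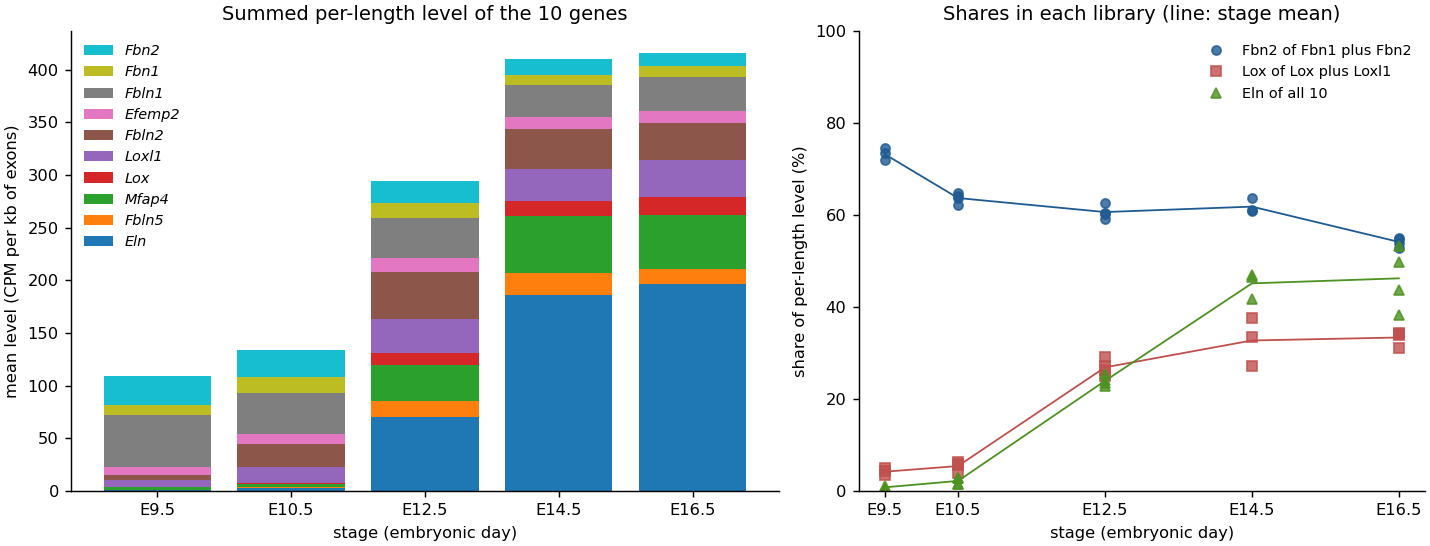
Left, mean level per kilobase of exons (CPM per kb, stacked by gene) at each stage. Right, in every library, the share (%) of Eln in the 10 genes, of Fbn2 in both fibrillins and of Lox in both oxidases, with lines through stage means. The Eln share goes to 46.2% at E16.5.

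Within a stage, libraries deviate from their stage mean for reasons that stage does not give, and these deviations were not used in listing the genes. Pearson correlations of log2 CPM deviations over the 18 libraries were tested for all 45 pairs by 100000 two-sided permutations within stages, and ran from -0.65 to 0.96. Of these, 2 pairs passed after Benjamini-Hochberg adjustment over the 45. Fbn1 with Fbn2 had r = 0.96 (permutation p = 5.00e-05, adjusted 0.00225) and Spearman's rho 0.93 (adjusted permutation p = 0.00270). Eln with Fbln5 had r = 0.92 (permutation p = 0.000440, adjusted 0.00990) and rho 0.89 (adjusted permutation p = 0.0310). Without the 2 libraries farthest from the median the values of r were 0.95 and 0.92, and with deviations taken within both stage and the macrophage-type split they were 0.94 and 0.89.

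The deviation of the fibrillins went with that of other long genes. Over 1457 protein-coding genes with at least 10 kb of exons, the median deviation of a library had r = 0.90 with that of Fbn1 and 0.89 with that of Fbn2 over the 18 libraries, given as a description. It had r = -0.42 with Eln and -0.39 with Fbln5. The part of transcript length in the fibrillin pairing was not tested. With that deviation as a term in the fit, an alternative chosen after seeing the data, Fbn2 passed at E12.5 against E10.5 (log2 fold change -0.28), at E14.5 against E12.5 (-0.44) and at E16.5 against E14.5 (-0.36), and Fbn1 passed at E10.5 against E9.5 (0.59) and at E14.5 against E12.5 (-0.51). Long genes also differed between stages. Their median log2 fold change was -0.18 at E12.5 against E10.5, where that of all 15396 protein-coding genes was 0.02. It was 0.08 at E10.5 against E9.5, -0.02 at E14.5 against E12.5 and -0.05 at E16.5 against E14.5. The term was a deviation within stages, so it cannot remove such differences between stages.

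**Figure D4:**
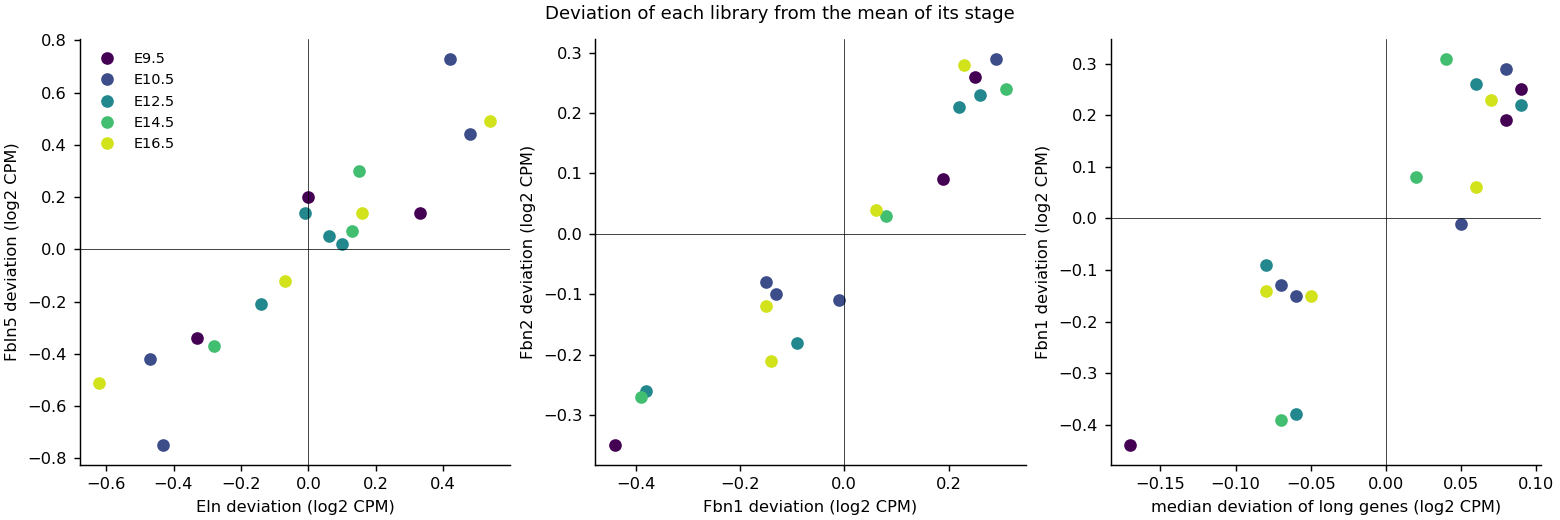
Deviation of each library from the mean of its stage in log2 CPM, coloured by stage, for Eln and Fbln5 (left), Fbn1 and Fbn2 (middle), and the median of long genes and Fbn1 (right). Points fall along a rising line in each panel, with r of 0.92, 0.96 and 0.90 over 18 libraries.

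Over all 18 libraries the profile of Eln in log2 CPM had r = 0.99 with Lox, 0.98 with Fbln5, 0.98 with Mfap4, 0.93 with Loxl1, 0.86 with Efemp2, 0.82 with Fbln2, -0.18 with Fbn1, -0.79 with Fbn2 and -0.82 with Fbln1. These describe the 5 stage levels, which all genes share. Among 10683 genes with a stage mean of at least 10 CPM at some stage, the 5 closest to Eln were Fcgrt (r = 0.993), Sept6 (0.992), Mgp (0.991), Pdgfrl (0.991) and Cbx6 (0.990). The 3 closest to Fbln1, the member least like Eln, were Frmpd1 (r = 0.935), Tbx3 (0.934) and Dcakd (0.923). Mgp encodes matrix Gla protein, an inhibitor of calcification in arteries, and Tbx3 a transcription factor of the conduction system.

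A further 36 genes, listed by their known place in the same pathway but with earlier results of these data known, were counted in the same fit: 14 microfibril and latent TGF-beta binding genes, 3 other fibulin genes, 9 cross-linking and processing genes and 10 elastin receptor and degradation genes. At E12.5 against E10.5, 21 rose, 4 fell and 11 did not pass, where 20.0% of all genes rose and 18.1% fell. Their median log2 fold change was 0.56, against 0.013 over all genes. At E10.5 against E9.5, 17 rose and 3 fell, with 16 not past and a median of 0.34, where 10.6% of all genes rose and 7.62% fell. The number past the threshold at that step, 20 with all libraries, was 29 within the libraries low in macrophage-type transcripts, 8 within the others, 23 in DESeq2 and 13 without E9.5 replicate 3. At E14.5 against E12.5, 4 rose and 3 fell with a median of -0.01, where 6.29% of all genes rose and 8.56% fell. At E16.5 against E14.5, 5 rose and 5 fell with a median of -0.03, where 10.1% of all genes rose and 8.74% fell. Counted either way, 7 and 10 of the 36 passed at these 2 steps, where 14.8% and 18.9% of all genes did. In DESeq2 these counts were 9 and 14. At E16.5 against E14.5 the 14 microfibril and latent TGF-beta binding genes held 4 of the rises and 4 of the falls. Since the 36 were listed with earlier results known, nothing is read from these counts. Over the whole span 23 rose, 8 fell and 5 did not pass, with a median of 0.90, where 32.1% of all genes rose and 32.8% fell.

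At E12.5 against E10.5 the microfibril genes held the largest rises. Ltbp3, a latent TGF-beta binding protein, rose to 88.8 CPM at E12.5, against 14.3 CPM at E10.5 (log2 fold change 2.64 ± 0.120 (SE), edgeR adjusted p = 9.73e-12). Adamtsl5 rose by 2.58 ± 0.169 (edgeR adjusted p = 1.12e-09), the microfibril-associated glycoprotein gene Mfap5 by 2.03 ± 0.198 (edgeR adjusted p = 1.76e-07) and Mfap2 by 1.58 ± 0.0838 (edgeR adjusted p = 5.21e-11). Libraries of the 2 stages did not overlap for any of these. Pcolce2, a procollagen C-proteinase enhancer, fell by 1.68 on the log2 scale (from 1.57 to 0.491 CPM, edgeR adjusted p = 0.000438). Thsd4, which promotes fibrillin assembly in mice, fell by 1.31 (edgeR adjusted p = 2.36e-05). Emilin2, of the elastin microfibril interface family, fell to 201 CPM at E12.5, against 276 CPM at E10.5 (log2 fold change -0.46, edgeR adjusted p = 0.000197). Atp7a, the copper pump that supplies lysyl oxidases, fell by 0.60 (edgeR adjusted p = 0.0184), a call that ended without E10.5 replicate 2, E12.5 replicate 1 or E12.5 replicate 3.

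At E10.5 against E9.5, the fibulin gene Efemp1 rose to 8.83 CPM at E10.5, against 1.46 CPM at E9.5 (log2 fold change 2.58 ± 0.322 (SE), edgeR adjusted p = 2.94e-05). Ltbp3 rose by 1.38 ± 0.139 (edgeR adjusted p = 1.55e-06), Ctsk, an elastin-degrading cathepsin, by 1.46 ± 0.349 (edgeR adjusted p = 0.00828) and Mfap5 by 1.15 ± 0.256 (from 0.458 to 1.02 CPM, edgeR adjusted p = 0.00326). The libraries of these genes did not overlap between the stages. The calls of Mfap5 and Ctsk ended when the 2 stages were fitted alone, and that of Mfap5 also within the libraries that are not low in macrophage-type transcripts. Ltbp2, Fbln7 and Adamtsl2 fell by 0.81, 0.64 and 0.45 on the log2 scale (edgeR adjusted p = 0.0367, 0.0300 and 0.0107), and each of these calls ended without E9.5 replicate 3. Of 17 alternatives, the call of Ltbp2 ended in 10, that of Fbln7 in 9 and that of Adamtsl2 in 2. Ltbp2 and Fbln7 were low, at 2.49 and 3.06 CPM at E9.5. Within the libraries not low in macrophage-type transcripts, of which E9.5 has 1, the 3 log2 fold changes were -0.91, -0.20 and -0.33.

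After E12.5 the latent TGF-beta binding genes moved in different directions. At E14.5 against E12.5 Ltbp2 rose to 14.6 CPM at E14.5, against 2.34 CPM at E12.5 (log2 fold change 2.65 ± 0.237 (SE), edgeR adjusted p = 8.35e-07), while Ltbp1 fell to 127 CPM, against 207 CPM at E12.5 (-0.70 ± 0.115, edgeR adjusted p = 0.000313). At E16.5 against E14.5 Ltbp1 fell further, to 76.9 CPM at E16.5 (-0.73 ± 0.113, edgeR adjusted p = 0.000155), and Ltbp4, whose protein is needed for elastic fibre assembly in mice, rose to 300 CPM at E16.5, against 194 CPM at E14.5 (0.63 ± 0.108, edgeR adjusted p = 0.000400). Adamtsl4, known for its part in fibrillin microfibrils, rose at both steps, by 0.58 (edgeR adjusted p = 0.000211) and 0.77 (edgeR adjusted p = 1.04e-05). Emilin2 fell at both, by 0.79 (edgeR adjusted p = 7.55e-06) and 0.43 (edgeR adjusted p = 0.00202), and Emilin3 fell by 1.41 at E16.5 against E14.5 (edgeR adjusted p = 1.08e-05). Mfap5 rose by 1.13 at E16.5 against E14.5 (edgeR adjusted p = 0.000476), when none of the 10 elastic fibre genes passed. In each of these comparisons the libraries of the 2 stages did not overlap.

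Adamtsl5 rose again at E14.5 against E12.5 by 0.65 (edgeR adjusted p = 0.00902) and at E16.5 against E14.5 by 0.83 (edgeR adjusted p = 0.00134), and Ltbp3 rose by 0.39 at E14.5 against E12.5 (edgeR adjusted p = 0.0307). Loxl2, a further lysyl oxidase, fell at both steps, by 0.35 (edgeR adjusted p = 0.0103) and 0.39 (edgeR adjusted p = 0.00362). At E14.5 against E12.5 the calls of Adamtsl5, Ltbp3 and Loxl2 ended without E14.5 replicate 3, and that of Ltbp3 also without E12.5 replicate 2, E12.5 replicate 3 or E14.5 replicate 2 and with the replicate block (edgeR adjusted p = 0.0591). That of Loxl2 also ended on library totals (edgeR adjusted p = 0.0525). Of the 10 receptor and degradation genes, none passed in edgeR at either of these steps, at which 14.8% and 18.9% of all genes did, and 0 and 1 had an unadjusted p under 0.05. Glb1, the gene of beta-galactosidase, lay at the threshold at E16.5 against E14.5 (log2 fold change -0.21, edgeR adjusted p = 0.0501) and passed in 6 of 16 alternatives, DESeq2 among them. Mmp12 and Ctss, elastin-degrading enzymes of macrophages, had standard errors of 1.49 to 1.90 log2 units at these steps.

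Over the whole span, E16.5 against E9.5, the largest rises were Mfap5 by 4.88 ± 0.257 on the log2 scale (SE, edgeR adjusted p = 3.51e-12), Adamtsl5 by 4.84 ± 0.213 (edgeR adjusted p = 2.93e-13), Ltbp3 by 4.44 ± 0.151 (edgeR adjusted p = 1.13e-14) and Efemp1 by 3.45 ± 0.328 (edgeR adjusted p = 8.14e-08). Mfap5, Adamtsl5 and Efemp1 started low, at 0.458, 1.01 and 1.46 CPM at E9.5. Emilin2 fell to 86.1 CPM at E16.5, against 243 CPM at E9.5 (edgeR adjusted p = 1.96e-11). Thsd4 fell by 1.60 (edgeR adjusted p = 1.19e-06), Emilin3 by 1.06 (edgeR adjusted p = 2.02e-05) and Fbln7 by 0.98 (edgeR adjusted p = 0.000284, a call that ended within the libraries not low in macrophage-type transcripts). The libraries of the 2 stages did not overlap for any of the 8.

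Markers of the cell types that make matrix moved over the same stages. Fibroblast markers, 10 genes such as Col1a1, Col3a1 and Postn, summed to 273 to 367 CPM at E9.5, 837 to 1039 at E10.5, 2339 to 3019 at E12.5, 3684 to 4050 at E14.5 and 4817 to 6041 at E16.5, with no overlap between stages and none of the 10 at 0 in all libraries of a stage. Of these markers 8 of 10 rose at E10.5 against E9.5, where 10.6% of all genes rose. At E12.5 against E10.5 it was 9 of 10, where 20.0% of all genes rose. At E14.5 against E12.5, 4 rose, 1 fell and 5 did not pass, where 6.29% of all genes rose and 8.56% fell. The counts were the same at E16.5 against E14.5, where 10.1% of all genes rose and 8.74% fell. Most of the markers thus did not pass as higher at these 2 later steps. Mural cell markers, the smooth muscle and pericyte genes such as Acta2, Tagln and Pdgfrb, summed to 3769 to 4591 CPM at E9.5, 2307 to 2572 at E10.5, 1588 to 1749 at E12.5, 1258 to 1386 at E14.5 and 1378 to 1615 at E16.5. At E12.5 against E10.5, 5 of the 10 mural markers rose and 2 fell, where 20.0% of all genes rose and 18.1% fell. Over the whole span, E16.5 against E9.5, 6 rose and 3 fell (median log2 fold change 0.43), where 32.1% of all genes rose and 32.8% fell. The lower sum at E16.5 was thus not shared by most of the markers. Pdgfrb had means of 13.8 CPM at E9.5 and 64.9 CPM at E16.5. None of the mural markers was at 0 in all libraries of a stage.

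Epicardial markers, 8 genes such as Wt1 and Tbx18, summed to 154 to 216 CPM at E9.5, 447 to 539 at E10.5, 400 to 530 at E12.5, 336 to 345 at E14.5 and 315 to 434 at E16.5. Valve mesenchyme markers, 8 genes such as Sox9 and Twist1, summed to 974 to 1337 CPM at E9.5, 1108 to 1367 at E10.5, 909 to 1046 at E12.5, 706 to 858 at E14.5 and 450 to 578 at E16.5. The fibroblast sum was thus larger at E12.5 than at E10.5, as were Eln, Fbln5, Lox and Mfap4. The valve mesenchyme sum was lowest at E16.5, as was Fbn2. Not all markers of a list moved alike. At E16.5 against E9.5, 6 of the 8 valve mesenchyme markers fell and 2 rose, where 32.8% of all genes fell and 32.1% rose. Of the 8 epicardial markers, 4 rose, 1 fell and 3 did not pass in that comparison. The part of any cell type in the level of an elastic fibre gene was not tested. Over the 18 libraries, correlations of each marker sum with each gene within stages are given as a description where r was beyond 0.5 in size. The fibroblast sum had r = 0.64 with Fbln2 and 0.59 with Lox, and -0.12 with both Eln and Fbln5. The valve mesenchyme sum had 0.76 with Fbn1, 0.71 with Fbn2 and 0.53 with Lox, and the endothelial sum 0.63 with Fbln1, 0.59 with Loxl1, 0.58 with Fbn2 and 0.55 with Fbn1. The mural sum had -0.69 with Fbln2 and -0.55 with Lox, and the epicardial sum 0.56 with Fbln2 and -0.52 with Mfap4. The macrophage-type sum had 0.58 with Eln, 0.56 with Fbln5 and 0.53 with Mfap4, and -0.61 with Loxl1, -0.59 with Fbn1, -0.52 with Fbn2 and -0.51 with Lox.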

How the data were processed

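Each deposited table gives raw counts, 1 whole number per Ensembl gene and library. Trimmomatic 0.36, featureCounts with Subread 1.5.2, and STAR 2.5.2b appear in the submitters' processing notes, with GRCm38 and mm10 as builds. Neither strand setting nor annotation release is given in the sources used here, so reads of genes overlapping on opposite strands may be counted for the partner.

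Symbols, coordinates and exon lengths came from GENCODE M21 on GRCm38, which held 49056 of the 49315 identifiers. The 10 genes, the related genes and the marker lists were chosen with earlier results of these data known. Counts were fitted with edgeR 4.0.16 in R 4.3.3: filterByExpr by stage (18885 genes kept), TMM scaling, and 1 robust quasi-likelihood model over all 18 libraries, with a Benjamini-Hochberg adjusted p under 0.05 over all genes tested. CPM use TMM-scaled library sizes, correlations log2 CPM with a prior count of 2. CPM of the macrophage-type transcripts, whose sum split libraries at 50 CPM, use library totals. Per-length levels divide by the summed length of all exons. Named related genes are, per comparison, up to 4 with the largest rise and up to 4 with the largest fall among those past the threshold. The fit was checked on simulated counts. In all 24 pairs of libraries within stages the counts differed beyond sampling noise, with a chi-square of 6.06 to 79.8 per degree of freedom. Alternatives were DESeq2 1.42.0, library totals, no filter, the compared stages alone, a replicate block, single libraries left out, each set of the macrophage-type split, that split as a term, and, added after seeing the data, the deviation of long genes as a term.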

Additional observations from a re-analysis of the deposited data

Results flagged for a closer look

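Of 30 groups of 4 libraries (10 genes at E10.5, E12.5 and E16.5), 3 had a library far from the other 3, where chance flags about 1 in 20. Fbln2 at E16.5 had 205 CPM in replicate 4, against 231 to 234 CPM in the others. Fbn2 at E10.5 had 414 CPM in replicate 2, against 314 to 321 CPM in the others. Loxl1 at E16.5 had 103 CPM in replicate 2, against 118 to 120 CPM in the others.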

How the results depend on the processing

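Of 830 recomputed fold changes of the 10 genes, 787 stayed on the same side of the threshold, 26 lost the call and 17 gained it. No called value changed sign. The sign changed in 19 of the 787, all of values not past the threshold and at most 0.08 in size with all libraries. The number of the 10 genes called at E14.5 against E12.5 was 5, 7 in DESeq2, 3 on library totals and 2 to 4 with single libraries left out; at E16.5 against E14.5 it was 0, 1 (Lox) within the libraries not low in macrophage-type transcripts, 1 (Lox) with that split as a term and 1 (Fbn2) with the long-gene term. All genes called at E10.5 against E9.5 numbered 3446, 6460 in the libraries low in macrophage-type transcripts, 1215 in the others and 2260 (without E9.5 replicate 3) to 3839 with single libraries left out. For the later steps leaving out single libraries gave 1771 (without E14.5 replicate 3) to 2585 genes at E14.5 against E12.5 (2803 with all) and 2058 (without E14.5 replicate 1; 2225 without E14.5 replicate 2) to 3849 at E16.5 against E14.5 (3562 with all). Of the related genes, 20 were called at E10.5 against E9.5, 29 in the libraries low in those transcripts, 8 in the others and 13 to 19 with single libraries left out, and 7 at E14.5 against E12.5, 4 (without E14.5 replicate 3) to 8 with single libraries left out. No library of E14.5 or E16.5 is low in macrophage-type transcripts, so the fit without the low libraries contrasts the same libraries at E16.5 against E14.5. The cause of these changes was not tested. Where a library set leaves a stage with 1 library, that library is assumed to vary like the others. On library totals 47 of 50 stage levels moved by less than 1 SD. Per length of the longest transcript 25 of 50 did.

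Whether replicate numbers pair the libraries was looked at in their deviations from the stage means. Of 33 same-numbered pairs across stages, 8 had correlated deviations over 0.1 (r from -0.78 to 0.66). With the replicate block, 7, 7, 5, 0 and 9 of the 10 genes were called in the 5 comparisons, against 6, 7, 5, 0 and 9 without it. At E10.5 against E9.5 Fbn1 was gained, and at E14.5 against E12.5 Lox was lost and Fbn2 gained. Counting limits the lowest values most: Fbln5 rested on 27 to 42 reads per E9.5 library.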
